A study of Mus musculus with 6 samples.

Results

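The miR-106b/93/25 cluster is a group of 3 microRNA precursors, mir-106b, mir-93 and mir-25, that are cut from a shared primary transcript. Its members are defined by name, as the rows mmu-mir-106b, mmu-mir-93 and mmu-mir-25 in a table of 855 mouse miRNA precursors, and the definition uses no measured value. The prefix mmu, for mouse, is left out below. All 3 were measured in every library and passed the filter on low values, as did 461 of the 855 precursors. The libraries were made from whole retina of 4-week-old mice on a mixed C57BL/6J - SJL background, each from a pool of 6 retinas. The 3 control libraries came from Dicerfl/fl, iCre75- mice and the 3 conditional knockout (cKO) libraries from Dicerfl/fl, iCre75+ littermates, so all animals carried floxed Dicer alleles and only the cKO animals carried the transgene. The iCre75 transgene expresses Cre recombinase in rod photoreceptors, and other retinal cells keep Dicer, the nuclease that cuts miRNA hairpins to mature miRNAs.

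The cluster lies in an intron of Mcm7, a gene for a subunit of the helicase that opens DNA for replication, and it is known from dividing cells, where E2F transcription factors drive its host gene. It has a pair of paralogous clusters elsewhere in the genome, miR-17-92 and miR-106a-363. The miR-106b and miR-93 miRNAs are known to repress the cell-cycle inhibitor Cdkn1a and E2F1 itself, and miR-25 is known to repress the pro-apoptotic gene Bcl2l11 (Bim). The rods, inner neurons and glia of a retina at this age are mostly postmitotic.

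The hairpins are shown because each value in the table is a sum over a whole hairpin, both arms included, so the arms cannot be told apart. They are RefSeq sequences (GRCm38.p6, minus strand), with both annotated mature arms in capitals and the remaining hairpin in lower case.
mir-106b: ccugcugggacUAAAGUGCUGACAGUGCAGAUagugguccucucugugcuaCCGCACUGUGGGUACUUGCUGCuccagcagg
mir-93: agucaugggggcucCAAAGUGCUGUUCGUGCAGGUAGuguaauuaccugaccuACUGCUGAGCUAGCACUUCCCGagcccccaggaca
mir-25: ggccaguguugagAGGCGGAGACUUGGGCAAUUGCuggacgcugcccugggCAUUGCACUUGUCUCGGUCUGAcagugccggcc
In that assembly mir-106b lies at chr5:138165737-138165818, mir-93 at chr5:138165523-138165610 and mir-25 at chr5:138165321-138165404. The gaps between the hairpins are 126 and 118 bases and the cluster spans 498 bases. In the GENCODE M21 annotation of the same assembly all 3 fall in intron 13 of the principal Mcm7 transcript, which has 15 exons, and that intron is 748 bases long. The deposited values were made on the mm9 build and carry no coordinates, so these positions describe the reference only.

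The mature arms that give the cluster its families are shown next, with the seed, bases 2 to 8, in capitals. The seed is the stretch with which a miRNA pairs to its targets.
miR-106b-5p: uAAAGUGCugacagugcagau
miR-93-5p: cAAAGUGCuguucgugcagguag
miR-17-5p: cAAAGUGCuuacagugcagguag
miR-20a-5p: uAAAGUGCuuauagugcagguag
miR-25-3p: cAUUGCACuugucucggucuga
miR-92a-3p: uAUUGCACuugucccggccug
miR-92b-3p: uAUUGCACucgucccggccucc
miR-32-5p: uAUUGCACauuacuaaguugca
The seed AAAGUGC is carried by miR-106b-5p and miR-93-5p and also by miR-17-5p and miR-20a-5p of the miR-17-92 cluster. The seed AUUGCAC is carried by miR-25-3p and also by miR-92a-3p, miR-92b-3p and miR-32-5p. Within the cluster, miR-106b-5p and miR-93-5p were identical at 16 of 21 positions. Between clusters, miR-106b-5p and miR-20a-5p were identical at 18 of 21 positions, miR-93-5p and miR-17-5p at 19 of 23, and miR-25-3p and miR-92a-3p at 18 of 21. Over windows of 20 bases, none of the 3 hairpins came within 1 mismatch of any of the 484 other hairpins compared. The closest windows differed at 2 bases for mir-106b and mir-25 and at 3 for mir-93.

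The values are reads per kilobase of precursor and per fixed number of library reads (RPKM). Library totals worked out from the values ranged from 5480940 to 7478237 reads, and the photoreceptor miRNA mir-182 alone took 53.2% to 57.4% of control and 27.7% to 33.8% of cKO reads. Each RPKM value is scaled by the total of the library it comes from. The recovered reads of all precursors add up to 1.55 to 1.56 times that total in control and 1.77 to 1.86 times in cKO libraries, so some reads are listed at several precursors and the values do not add up as shares. Of the tested precursors, 320 of 461 (69.4%) rose and 8 (1.74%) fell as deposited (limma, Benjamini-Hochberg adjusted p below 0.05), with a median log2 fold change of 0.74. The 3 photoreceptor markers mir-182, mir-96 and mir-183 summed to 7568213 to 7894241 RPKM in control and 4037712 to 4911543 RPKM in cKO retina. Most of each sum was mir-182, with 7089879 to 7654312 RPKM in control and 3699195 to 4511806 RPKM in cKO retina. The sums therefore restate mir-182 and do not show a fall of mir-96 or mir-183. Dicer mRNA was not analysed here, so the target itself does not check the labels. In whole tissue, fewer cells of a type and less RNA per cell cannot be told apart.

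As deposited, all 3 members were higher in cKO than in control retina, mir-25 and mir-93 by about the same factor and mir-106b by less. In every library mir-25 stood far above mir-93 and mir-106b. Relative to the typical precursor, none of the 3 rose or fell past the threshold.

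The precursor mir-25, which carries the seed of the miR-92 family, measured 11795, 8389 and 9065 RPKM in control 1 to 3 and 15797, 15213 and 15020 RPKM in cKO 1 to 3. The groups did not overlap, control 1 was the highest control library, and the cKO libraries lay close together. The control mean was 9750 ± 1803 RPKM and the cKO mean 15343 ± 405 RPKM (SD, n = 3 each). This was a 1.59-fold rise, or 0.67 on the log2(RPKM + 1) scale (95% interval 0.34 to 1.00; SE 0.15; limma adjusted p = 0.0029). The log2 fold change ran from 0.57 to 0.81 when any single library was left out, and it passed in all 6 of these fits.

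The precursor mir-93, with the miR-17 seed, measured 707, 641 and 816 RPKM in control 1 to 3 and 1093, 1233 and 1066 RPKM in cKO 1 to 3. Every cKO library exceeded every control library, with control 3 the highest control and cKO 2 the highest cKO library. The means were 721 ± 88.3 RPKM and 1130 ± 89.6 RPKM (SD, n = 3 each). The rise was 1.57-fold, a log2 fold change of 0.65 (95% interval 0.32 to 0.98; SE 0.15; limma adjusted p = 0.0036). It passed in each of the 6 fits without a library, at 0.57 to 0.74.

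The precursor mir-106b, also with the miR-17 seed, measured 714, 662 and 632 RPKM in control 1 to 3 and 1055, 878 and 803 RPKM in cKO 1 to 3. The groups did not overlap here either, but cKO 1 stood above the other cKO libraries and cKO 3 was not far above control 1. The means were 669 ± 41.6 RPKM and 912 ± 129 RPKM (SD, n = 3 each). The rise was 1.36-fold, a log2 fold change of 0.44 (95% interval 0.099 to 0.78; SE 0.15; limma adjusted p = 0.027). This call ended without control 2, control 3, cKO 1 or cKO 2, and the lowest value was 0.33 without cKO 1 (adjusted p = 0.10).

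**Figure D1:**
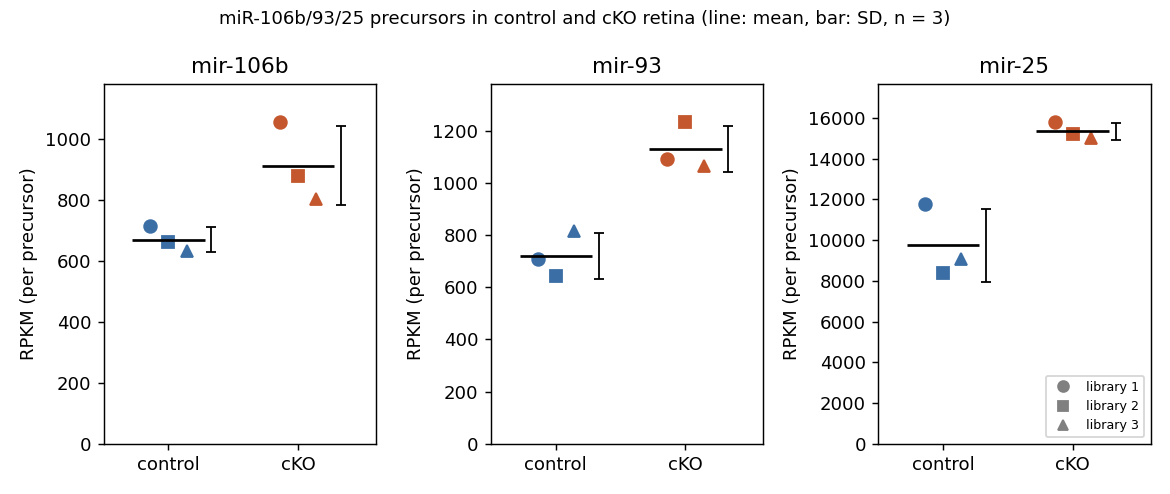
RPKM of mir-106b, mir-93 and mir-25 in each library, with linear axes from 0, markers for the library number, horizontal lines for the group mean and bars for the SD (n = 3). In each panel every cKO library lies above every control library, with the narrowest gap for mir-106b (714 against 803 RPKM).

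All 3 members thus rose and none overlapped between genotypes as deposited, against backgrounds of 69.4% of tested precursors that rose and 71.6% whose cKO libraries all lay above the control libraries. A count of 3 of 3 is close to what most precursors did. Against the median of all tested precursors, mir-25 stood at -0.071, mir-93 at -0.089 and mir-106b at -0.30 on the log2 scale. A lower fold change than that of mir-25 was found for 39.3% of the 461 precursors, than that of mir-93 for 37.7% and than that of mir-106b for 21.7%.

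Median-of-ratios scaling sets the typical precursor equal between libraries. After it mir-25 stood at -0.062 (95% interval -0.42 to 0.30; limma adjusted p = 0.88), mir-93 at -0.079 (-0.36 to 0.20; adjusted p = 0.80) and mir-106b at -0.29 (-0.66 to 0.073; adjusted p = 0.25). This scaling moves all precursors by nearly the same amount (the median goes from 0.74 to 0.018), so the signs restate the places of the members below the median, and 0 members passed in limma with or without adjustment for multiple tests. In that fit 10 of 461 precursors (2.17%) rose and 46 (9.98%) fell. The intervals for mir-25 and mir-93 reach above 0 and below 0, so a modest change in either direction is not separated from none.

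**Figure D2:**
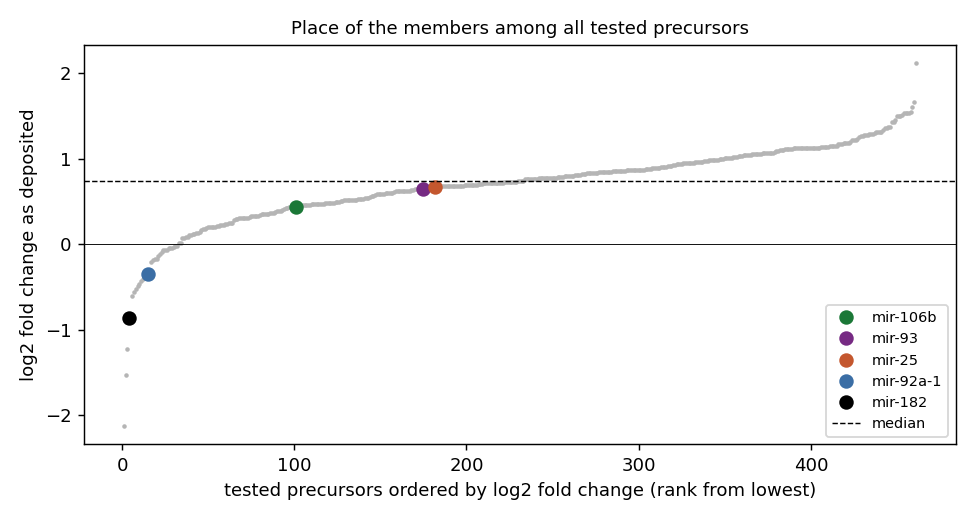
Log2 fold change (cKO minus control, as deposited) of the 461 tested precursors, ordered from lowest to highest, with the 3 members, mir-92a-1 and mir-182 marked and the median as a dashed line at 0.74. The members mir-93 and mir-25 lie side by side just under the median, mir-106b lies further down, and mir-92a-1 and mir-182 are below 0.

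Ranks within a library do not depend on its total. Counted from the most abundant of the 461, mir-25 held places 66 to 80 in control and 72 to 79 in cKO libraries, so the groups overlapped. The ranks of mir-93 were 159 to 172 in control and 167 to 172 in cKO libraries. Those of mir-106b were 162 to 172 and 169 to 190, with cKO 2 and cKO 3 lower than any control library. The ranges overlapped for all 3.

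The RPKM of mir-25 differed from those of mir-93 and mir-106b far more than any member differed between genotypes, although all 3 come from a shared transcript. Whether RPKM of different precursors compare as amounts of RNA was not tested. Per length, mir-25 made up 87.3% ± 1.66 of the cluster's summed RPKM in control libraries and 88.3% ± 0.593 in cKO libraries (SD, n = 3 each). The share of mir-93 was 6.57% ± 1.21 and 6.50% ± 0.540, and that of mir-106b 6.08% ± 0.713 and 5.23% ± 0.579. In control retina mir-93 and mir-106b did not differ beyond their spread, and mir-93 was the higher of the pair in 1 of 3 control libraries. In cKO retina mir-93 was the higher in all 3 libraries. All 3 hairpins together held 5621 to 8312 reads per control library and 7790 to 10455 reads per cKO library.

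The reads behind these values set their counting error. They numbered 361 to 599 per library for mir-106b, 389 to 750 for mir-93 and 4858 to 9190 for mir-25. For mir-106b in cKO 3, with 361 reads, the counting error was 5.26% of the value. The SD between cKO libraries of mir-106b, 129 on a mean of 912 RPKM, was larger. Reads amplified by PCR without molecular identifiers are not independent molecules, so this covers counting error only.

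Ratios of precursors within a library do not depend on its total, and 7 of them were compared between genotypes. Within the cluster, the control and cKO libraries overlapped in all 3 ratios. The log2 ratio of mir-25 to mir-93 was 4.06, 3.71 and 3.47 in control 1 to 3 and 3.85, 3.62 and 3.82 in cKO 1 to 3. The control mean was 3.75 ± 0.295 and the cKO mean 3.76 ± 0.122 (SD, n = 3 each), a difference of 0.018 (exact two-sided permutation p = 1.0). As a ratio the geometric mean was 13.4 in control and 13.6 in cKO retina, with single libraries from 11.1 to 16.7, and leaving out a library moved the log2 difference between -0.12 and 0.17.

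The ratio of mir-25 to mir-106b was 14.4 in control and 16.9 in cKO retina, a log2 difference of 0.23 with overlapping groups (exact two-sided permutation p = 0.2). The ratio of mir-93 to mir-106b was 1.07 and 1.24, a log2 difference of 0.21, also with overlap (exact two-sided permutation p = 0.2). Leaving out a library moved the second difference between 0.13 and 0.35 and the first between 0.14 and 0.33. The pooled SDs of these log2 ratios were 0.18 and 0.23.

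The other ratios set each member against a precursor of the miR-17-92 cluster with the same seed. Relative to mir-92a-1, the most abundant precursor of that cluster, mir-25 was higher in every cKO library than in any control library. The ratio of mir-25 to mir-92a-1 was 0.277, 0.138 and 0.128 in control 1 to 3 and 0.382, 0.316 and 0.338 in cKO 1 to 3. Control 1 stood apart from the other controls and near the cKO libraries. The log2 ratio was -2.56 ± 0.613 and -1.54 ± 0.139 (SD, n = 3 each), a difference of 1.02, or 2.03-fold. By exact permutation (two-sided) p was 0.1, which is the smallest that 3 libraries against 3 allow, and 0.23 after adjustment over the 7 ratios. Without control 1 the difference was 1.37, and the other fits that left out a library gave 0.82 or more.

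Between the miR-17-seed precursors, mir-93 relative to mir-17 was higher in every cKO library than in any control library. The ratio of mir-93 to mir-17 was 2.77, 2.38 and 2.64 in control 1 to 3 and 4.37, 3.44 and 3.14 in cKO 1 to 3. Control libraries lay within a narrow range, and cKO 1 was the highest of all 6. The log2 difference was 0.48, or 1.40-fold (exact two-sided permutation p = 0.1, adjusted p = 0.23), and 0.34 without cKO 1. For mir-106b against mir-20a the log2 ratio was 2.08 ± 0.297 and 2.32 ± 0.462 (SD, n = 3 each), with overlap (exact two-sided permutation p = 0.7). That difference of 0.24 rested on cKO 1, without which it was -0.029.

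The summed RPKM of the cluster was 0.289, 0.153 and 0.143 of that of the miR-17-92 cluster in control 1 to 3 and 0.392, 0.337 and 0.356 in cKO 1 to 3. Every cKO library was above every control library, and control 1 again lay closest to the cKO group. The log2 difference was 0.96, or 1.95-fold (exact two-sided permutation p = 0.1, adjusted p = 0.23), and 1.28 without control 1. The sum of the miR-17-92 cluster is mostly mir-92a-1, so this ratio and that of mir-25 to mir-92a-1 are not separate measurements.

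**Figure D3:**
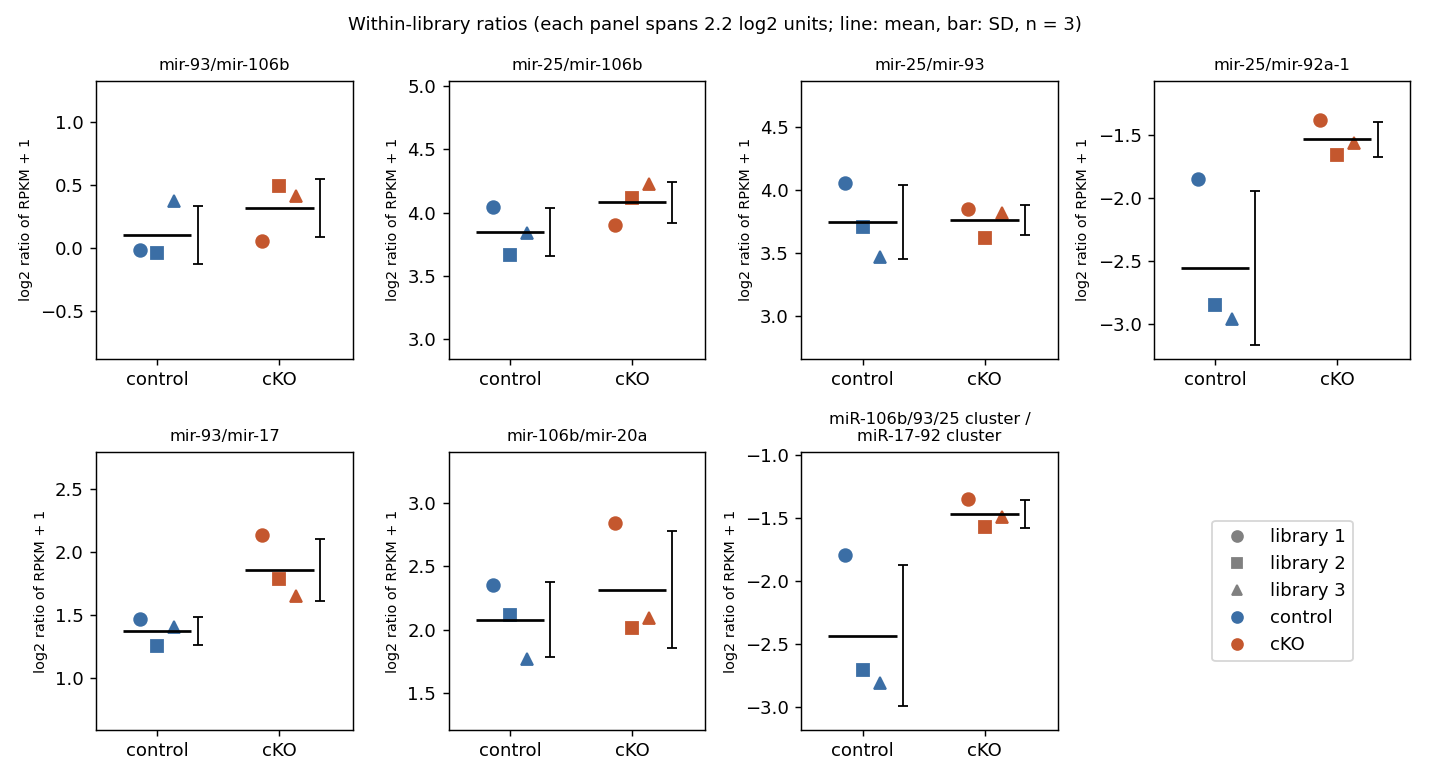
Log2 ratio of RPKM + 1 within each library for the 7 ratios, with control in blue and cKO in orange, lines for the mean and bars for the SD (n = 3); every panel spans the same number of log2 units. The ratios among mir-106b, mir-93 and mir-25 overlap between genotypes, whereas mir-25 to mir-92a-1, mir-93 to mir-17 and the cluster sums do not, with control 1 closest to the cKO libraries for mir-25 to mir-92a-1.

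The precursors mir-92a-1, mir-17 and mir-20a did not pass as deposited. Of these, mir-92a-1 measured 42552, 60659 and 70685 RPKM in control 1 to 3 and 41315, 48096 and 44438 RPKM in cKO 1 to 3. The groups overlapped through control 1. Its log2 fold change was -0.35 (95% interval -0.74 to 0.043; limma adjusted p = 0.096), and without control 1 it fell by 0.56 (adjusted p = 0.0040). Leaving out any other library gave -0.40 to -0.19, and it did not pass there (limma adjusted p = 0.099 to 0.33). The fall past the threshold thus depended on which library was left out. With the typical precursor set equal it fell by 1.08 (median-of-ratios scaling, adjusted p = 0.0021). The mature miR-92a-3p is also made from mir-92a-2, and how its reads were divided between these precursors is not known. Their recovered reads differed, with 25457 at mir-92a-1 and 13779 at mir-92a-2 in control 1.

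The precursor mir-17 measured 255, 269 and 309 RPKM in control 1 to 3 and 249, 358 and 339 RPKM in cKO 1 to 3. The groups overlapped, with cKO 1 the lowest of all 6 libraries. Its log2 fold change was 0.17 as deposited (limma adjusted p = 0.39) and -0.56 after median-of-ratios scaling (adjusted p = 0.040). For mir-20a the values were 0.20 (limma adjusted p = 0.37) and -0.53 (adjusted p = 0.078).

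Of the other precursors that share the miR-25 seed, mir-92b and mir-32 rose as deposited, while mir-92a-2, at -0.52 on the log2 scale (limma adjusted p = 0.064), like mir-92a-1 did not pass. Without control 1 mir-92a-2 fell by 0.82 (adjusted p = 0.0014). Leaving out any other library gave -0.60 to -0.32, and mir-92a-2 did not pass there (limma adjusted p = 0.057 to 0.23). Differences between these precursors were not tested. The precursor mir-92b went from a control mean of 14196 ± 1199 RPKM to a cKO mean of 23724 ± 2889 RPKM (SD, n = 3 each), a rise of 0.74 on the log2 scale (SE 0.14; limma adjusted p = 0.0013). The much scarcer mir-32 measured 38.2, 45.6 and 72.8 RPKM in control 1 to 3 and 130, 97.1 and 115 RPKM in cKO 1 to 3. Its groups did not overlap, and it rose by 1.15 (SE 0.26; limma adjusted p = 0.0032). After median-of-ratios scaling mir-92b stood at 0.0051 and mir-32 at 0.43, and neither passed (adjusted p = 0.98 and 0.25). By level in control retina the precursors of this seed compared here ran from mir-92a-1 through mir-92a-2 (32101 ± 10627 RPKM), mir-92b and mir-25 to mir-32 and mir-363 (6.79 ± 1.84 RPKM). This order leaves out mir-367, which carries the seed too. In cKO retina mir-92b, at 23724 ± 2889 RPKM, and mir-92a-2, at 21543 ± 2623 RPKM, did not differ beyond their spread between libraries. Within the libraries, mir-92b was the higher of the pair in every cKO library.

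Over the paralogous clusters with mir-32 and mir-92b, 13 of 14 precursors passed the filter on low values and mir-363 did not. As deposited 3 of the 13 rose (mir-18a, mir-32 and mir-92b) and 0 fell (limma; at an unadjusted p below 0.05, 1 fell, and limma voom on whole reads also gave 0). The call of mir-18a rested on 10 to 26 reads per library and ended whenever a library was left out (adjusted p = 0.053 to 0.15). Without control 1, 2 of the 13 fell, and without any other single library 0 did. The median log2 fold change of the 13 was 0.35, beside 0.74 over all tested precursors, and 3 of 13 had cKO libraries above all control libraries against 71.6% of all. After median-of-ratios scaling 3 of the 13 fell (mir-17, mir-92a-1 and mir-92a-2) against 9.98% of all, 0 rose (0 also at an unadjusted p below 0.05), and the median was -0.38 beside 0.018. As deposited, the log2 fold changes of mir-25, mir-93 and mir-106b were 0.67, 0.65 and 0.44. All 3 lay between the median of the related list and that of all precursors, with mir-106b nearest the related list. Several of the 13 may not be separate measurements: miR-17-5p and miR-106a-5p differ at 1 base, and mir-19b-1 with mir-19b-2, like mir-92a-1 with mir-92a-2, give the same mature miRNA.

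**Figure D4:**
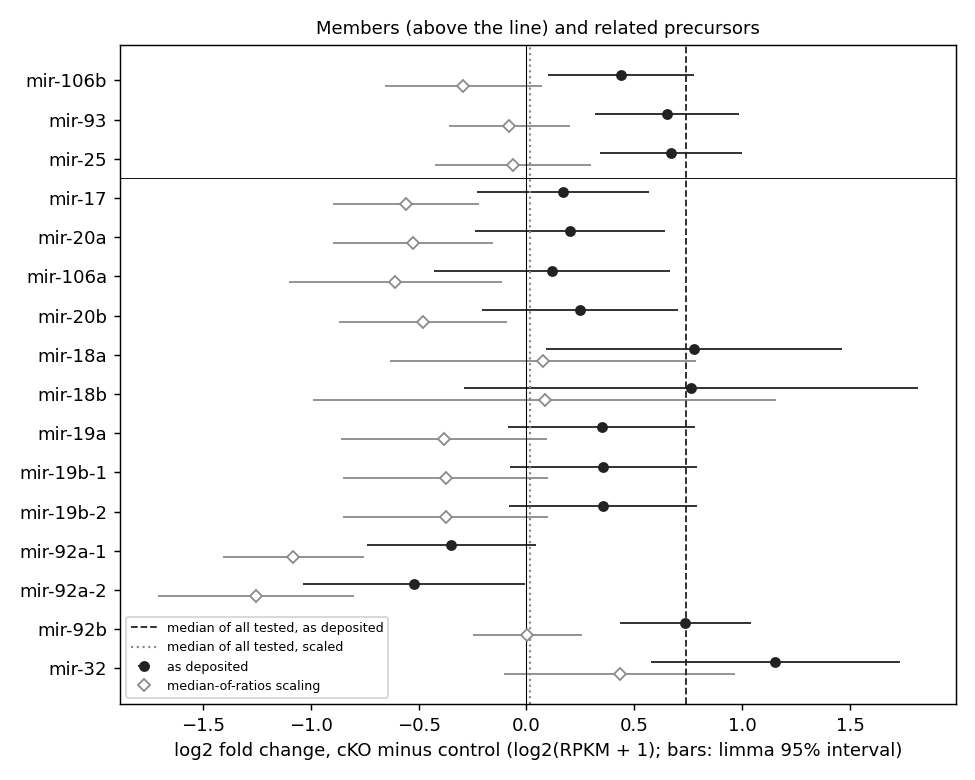
Log2 fold changes (cKO minus control) with limma 95% intervals for the 3 members and the 13 related precursors tested, as deposited (filled circles) and after median-of-ratios scaling (open diamonds), with the medians of all 461 tested precursors at 0.74 (dashed) and 0.018 (dotted). The intervals of the members hold the median under both scalings, while those of mir-17, mir-20a, mir-106a, mir-20b, mir-92a-1 and mir-92a-2 lie below it.

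Profiles over the 6 libraries were compared by the root mean square distance of their centred log2(RPKM + 1) values among 303 other precursors that averaged at least 100 RPKM. The values were as deposited, so the distances include the rise that 69.4% of tested precursors had. The median distance was 0.29 to mir-25, 0.23 to mir-93 and 0.31 to mir-106b. The closest to mir-25 were the 3 copies of mir-9, known from neural progenitors and glia (distance 0.057 each), which give the same mature miRNA. Their log2 fold change, 0.72 each, was near the median of 0.74 over all tested precursors, and a link by cell type was not tested. The closest to mir-93 were mir-296, mir-7a-2 and mir-674 (0.070 each), and the closest to mir-106b were mir-298 (0.096), mir-301a (0.13) and mir-301b (0.13). The members were not each other's nearest profiles. The distance of mir-25 to mir-93 was 0.18, with 50 other precursors closer to mir-25 and 86 closer to mir-93. That of mir-106b to mir-25 was 0.19, with 21 other precursors closer to mir-106b and 50 closer to mir-25. That of mir-106b to mir-93 was 0.22, with 45 closer to mir-106b and 135 closer to mir-93.

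Members of the cluster are also found in blood cells, so the markers of other cells were set beside them. The 3 red cell precursors mir-451a, mir-144 and mir-486 summed to 16553 to 19359 RPKM in control and 26667 to 31080 RPKM in cKO retina, a 1.66-fold difference of the means. The 4 leukocyte and microglial precursors summed to 2115 to 2588 and 3741 to 5654 RPKM, a 2.07-fold difference. The 3 vascular precursors differed 1.80-fold (18667 to 34997 and 41036 to 54676 RPKM) and the 3 copies of mir-9 1.64-fold (147400 to 193468 and 256649 to 281145 RPKM). No marker in these lists was at 0 in all libraries. The median precursor differed 1.67-fold, and the part of these cells in the values of the cluster was not tested.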

How the data were processed

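Small RNA libraries of 6 samples were compared, 3 per genotype; per the labels' protocols each was made from 1 µg of total RNA, amplified by 11 PCR rounds, size-selected and sequenced in a shared 50-base run. The authors deposited RPKM per miRNA precursor. Bowtie and mm9 are named in the submitters' processing notes; the annotation and handling of multiply mapping reads remain not given in the sources used here. RPKM times the RefSeq hairpin length was a whole multiple of a fixed step (tolerance 0.01 reads) in 100.0% of 2468 values above 0 from 655 matched precursors, which gave reads and totals. Lengths of 167 others were the shortest giving whole reads, a rule right for 99.7% of 312 precursors.

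Log2(RPKM + 1) was tested two-sided with limma (version 3.58.1, R 4.3.3; empirical Bayes with a mean-variance trend) where the mean over libraries reached 10 RPKM, with Benjamini-Hochberg adjustment over all 461 and a threshold of 0.05. The fit was tested on simulated data. Pseudocounts understate changes of low precursors. Ratios were tested by exact permutation (scipy 1.17.1), and figures drawn with matplotlib 3.10.9. Alternatives were another pseudocount, filters, scalings, the variance model, limma voom on whole reads, a block for the replicate number and leaving out each library. Named precursors were the members, those in the ratios, related precursors past the threshold as deposited or scaled, mir-182, and the 3 profiles closest to each member. The members are defined by name, and the choice to describe them, the lists and the ratios was made with earlier results of these data known. The labels do not say which mice entered which pool, so p-values measure the spread between these samples. The marker mir-145 was read from the row mir-145a. Of the other marker lists, mean sums differed 1.64-fold for inner retina, 0.943-fold for pan-neuronal, 1.95-fold for pigment epithelium, 1.55-fold for muscle and 2.23-fold for epithelium and lens. The groups overlapped for pan-neuronal, for muscle and for epithelium and lens. Sums for epithelium and lens ran from 2566 to 54426 RPKM in control and from 25450 to 63544 RPKM in cKO libraries.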

Additional observations from a re-analysis of the deposited data

How the results depend on the processing

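Scalings move all precursors by nearly the same amount, and the members, which lie below the median, changed sign under some of them. With totals without mir-182 the log2 fold changes were -0.19 for mir-106b, 0.027 for mir-93 and 0.045 for mir-25. Another scaling multiplied each value by the summed RPKM of all precursors over that of all but the 10 most abundant. This is not the same as taking the remaining sum as the total. The log2 fold changes were then 0.14, 0.35 and 0.37 (limma adjusted p = 0.50, 0.053 and 0.081). With median-of-ratios scaling they were -0.29, -0.079 and -0.062. In these 3 scalings, in the order median-of-ratios, without mir-182 and without the top 10, 10, 20 and 193 precursors rose and 46, 36 and 18 fell; of related precursors 0, 0 and 2 rose and 3, 2 and 2 fell. The log2 fold change was -0.56, -0.45 and -0.13 for mir-17 and -0.53, -0.42 and -0.099 for mir-20a. With a mean of at least 100 RPKM required, 306 precursors were tested, of which 235 (76.8%) rose and 4 (1.31%) fell. Of the 10 related precursors tested there 1 rose, and mir-18a and mir-32 did not pass this filter. The pseudocount, filters, variance model and voom kept each member's direction and call.

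Leaving out each library gave 252 to 322 precursors that rose and 4 to 12 that fell, 2 to 3 related precursors that rose and 0 to 2 that fell (2 without control 1). The log2 fold change was 0.33 to 0.53 for mir-106b (adjusted p = 0.022 to 0.10), 0.57 to 0.74 for mir-93 and 0.57 to 0.81 for mir-25. The call of mir-18a ended in each of these 6 fits (adjusted p = 0.053 to 0.15), without a filter (0.058) and in the 3 scalings. Ratio differences ran from -0.12 to 0.17 for mir-25 to mir-93 and 0.78 to 1.28 for the cluster sums. The 7 ratios moved by less than the SD between libraries in each alternative.

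With the replicate number as a block 338 precursors rose and 10 fell, and 5 related precursors rose and 2 fell. The members passed there as well, at 0.44 (mir-106b, adjusted p = 0.018), 0.65 and 0.67. Deviations of same-numbered libraries correlated at 0.19, 0.26 and 0.0093, and those of libraries with different numbers at -0.22 to 0.048. Libraries numbered 1 and 2 correlated best with their own number, while control 3 and cKO 3 did not. Whether same-numbered libraries share more than a number cannot be told from these values. Among the members, depth is lowest for mir-106b and mir-93, at 361 to 750 reads; mir-18a had 10 to 26.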
